A study of Mus musculus with 13 samples.

Results

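The interferon response genes described here were 34 genes listed by symbol for what they are known to do, with no threshold on their values. For each gene the probe with the brightest mean signal was taken among the probes that the platform annotation gives to that symbol. Of the 34 genes, 33 had such a probe among the 29453 features of the arrays, and Ifi44 had none in that annotation. A gene was tested when its probe was detected, with a detection p under 0.01, on at least 2 of the 13 arrays. This left 28 of the 34, among 12807 features tested in all, and 22 of the 28 were detected on every array.

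The arrays held RNA of hematopoietic stem and progenitor cells sorted from C57BL/6 mice, hybridised to Illumina bead arrays. Mice were c-Cbl +/+ controls, c-Cbl A/- mutants with an allele written A over a null allele, or c-Cbl -/- mutants. c-Cbl attaches ubiquitin to activated tyrosine kinase receptors and so sends them for degradation. The nature of the A allele is not stated in the labels, which give neither age, sex nor the number of mice behind an array. Long-term stem cells (LTHSC) were sorted as CD34- Flt3-, short-term stem cells (STHSC) as CD34+ Flt3- and multipotent progenitors (MPP) as CD34+ Flt3+, all within lineage-negative c-Kit+ Sca1+ cells, and these 3 populations are called LSK cells. Common myeloid progenitors (CMP) were CD34+ CD16/32-, granulocyte-macrophage progenitors (GMP) CD34+ CD16/32+ and megakaryocyte-erythroid progenitors (MEP) CD34- CD16/32-, all lineage-negative, c-Kit+ and Sca1-, and they are called committed progenitors. Every population had 1 +/+ array and 1 A/- array, and LTHSC also had the only -/- array. With 1 array a group, the 6 populations stood in for replicates, so a test reaches only a difference that populations share, and its p-value measures the spread between these arrays.

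Interferons are cytokines that cells release on infection. Type I interferons bind a receptor whose kinases JAK1 and TYK2 activate STAT2, which acts together with IRF9 at interferon-stimulated response elements in DNA, while interferon gamma has a receptor of its own and acts through gamma-activated sites. The genes switched on encode antiviral proteins, sensors of viral RNA, further transcription factors and inhibitors that end the signal. In blood formation, interferons are known to bring resting stem cells into cycle for a time, and stem cells are known to keep part of this program on without added interferon.

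The promoters of the genes that the results below turn on are printed first. The sequences are from RefSeq on build GRCm38.p6, which held a promoter, from 250 bases before to 50 bases after the annotated start, for 26 of the 34 genes. A letter pattern of the interferon-stimulated response element, a pair of gaaa copies on the same strand, either one, with 2 bases of any kind between them, was found in 16 of these 26 genes (61.5%). The same pattern was found in 3.99% of all 27025 genes with a promoter there, and in 3.44% of all 32851 promoters of that length. A pattern of the gamma-activated site, ttcnnngaa, was found in 10 of the 26 (38.5%), against 9.55% of all genes and 8.3% of all promoters. Where a gene had several annotated starts, the first with a match is shown. A match is a description of letters in this window, and a gene without one can carry a site elsewhere. The 250 bases before the start are given for 5 genes that the class and genotype results turn on, 5′ to 3′ on the gene's strand. Oasl2 lies at chr5:114896684-114896933 on the + strand and holds no match of the response element pattern. Gbp2 lies at chr3:142620413-142620662 on the + strand, with a match that begins -59 bases from the start, and Isg15 at chr4:156200819-156201068 on the - strand, with 3 overlapping matches that begin at -78, -72 and -66. Trim30a lies at chr7:104465194-104465443 on the - strand with a match at -36, and Irf1 at chr11:53769764-53770013 on the + strand with a gamma-activated pattern at -90. Capitals mark the matched letters.
Oasl2: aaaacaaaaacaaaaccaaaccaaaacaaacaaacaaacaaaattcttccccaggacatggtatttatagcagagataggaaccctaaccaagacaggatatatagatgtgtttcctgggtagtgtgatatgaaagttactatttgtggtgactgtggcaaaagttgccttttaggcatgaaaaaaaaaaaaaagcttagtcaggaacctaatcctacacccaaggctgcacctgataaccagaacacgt
Gbp2: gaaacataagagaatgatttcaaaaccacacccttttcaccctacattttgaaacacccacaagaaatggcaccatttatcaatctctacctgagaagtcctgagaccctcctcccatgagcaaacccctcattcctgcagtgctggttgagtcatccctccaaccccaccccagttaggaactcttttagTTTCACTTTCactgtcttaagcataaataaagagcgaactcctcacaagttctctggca
Isg15: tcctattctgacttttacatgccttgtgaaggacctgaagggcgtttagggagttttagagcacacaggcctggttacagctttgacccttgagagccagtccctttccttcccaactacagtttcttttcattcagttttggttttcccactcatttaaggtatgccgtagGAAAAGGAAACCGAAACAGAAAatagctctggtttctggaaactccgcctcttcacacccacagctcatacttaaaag
Trim30a: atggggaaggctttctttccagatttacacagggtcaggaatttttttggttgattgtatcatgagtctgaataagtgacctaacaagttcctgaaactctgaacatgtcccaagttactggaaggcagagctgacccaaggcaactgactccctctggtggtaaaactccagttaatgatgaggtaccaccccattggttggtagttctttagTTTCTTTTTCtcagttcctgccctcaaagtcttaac
Irf1: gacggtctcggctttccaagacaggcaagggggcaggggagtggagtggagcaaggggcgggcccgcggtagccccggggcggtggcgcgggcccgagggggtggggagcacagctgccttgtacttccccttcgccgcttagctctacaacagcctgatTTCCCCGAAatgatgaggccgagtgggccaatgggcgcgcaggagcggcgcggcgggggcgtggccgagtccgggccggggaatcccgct

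For the other tested genes with a response element pattern, 30 bases around the match farthest downstream are shown, since they let the cores be compared. Over all 16 genes these last matches lay between 222 bases before and 33 bases after the start. In 4 genes the match lay after the start, and in 8 it lay within 100 bases before it.
Ifit3 (chr19:34583397-34583426, + strand): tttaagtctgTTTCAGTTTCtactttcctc
Rsad2 (chr12:26456553-26456582, - strand): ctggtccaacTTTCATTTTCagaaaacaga
Bst2 (chr8:71537577-71537606, - strand): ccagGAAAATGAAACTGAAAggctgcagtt
Ifitm3 (chr7:141010706-141010735, - strand): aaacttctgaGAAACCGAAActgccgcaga
Eif2ak2 (chr17:78882535-78882564, - strand): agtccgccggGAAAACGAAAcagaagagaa
Ifih1 (chr2:62646206-62646235, - strand): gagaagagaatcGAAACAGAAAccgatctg
Ddx58 (chr4:40239804-40239833, - strand): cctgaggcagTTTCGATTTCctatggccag
Stat2 (chr10:128270266-128270295, + strand): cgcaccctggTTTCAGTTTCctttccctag
Gbp3 (chr3:142559995-142560024, + strand): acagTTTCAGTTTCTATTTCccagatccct
Igtp (chr11:58199512-58199541, + strand): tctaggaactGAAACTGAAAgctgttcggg
Irgm1 (chr11:48871425-48871454, - strand): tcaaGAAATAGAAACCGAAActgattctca
Several genes carried a run of the pattern with overlapping copies, and 8 of the 16 had more than 1 match.

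The signals used below are log2 values after background correction and quantile normalization of all 13 arrays. They compare 1 gene between arrays and not different genes with each other, since each probe has its own brightness. Where a gene's signals are listed, the 3 LTHSC values are those of +/+, A/- and -/- cells in that order, and every later pair gives +/+ and then A/-. The 3 LTHSC arrays stood on their own intensity scale, with unnormalized medians of 51.7 to 52.9 against 148.3 to 191.0 on the other 10 arrays, so a difference of LTHSC from other populations and this scale cannot be told apart. In every population the A/- array was dimmer than the +/+ array before normalization, at 0.654 to 0.957 of its mean signal. The share of probes detected was 30.4% to 38.0%. Stem cell markers summed to a signal of 5484 to 14503 on LSK arrays and 767 to 4027 on committed arrays. Most of the LSK sums came from 1 gene, Meis1. Of the 6 stem cell genes tested, 4 were higher in LSK cells and 2 lower, with 0 called. Erythroid and megakaryocyte markers summed to at least 104938 on the MEP arrays and at most 68144 elsewhere. The probe of Cbl, the targeted gene, was detected on 0 of 13 arrays and checks no label, and the probe of Flt3, a sort marker of MPP, was also detected on none. As the samples are bulk RNA, fewer cells of a type and less RNA per cell cannot be told apart.

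**Figure D1:**
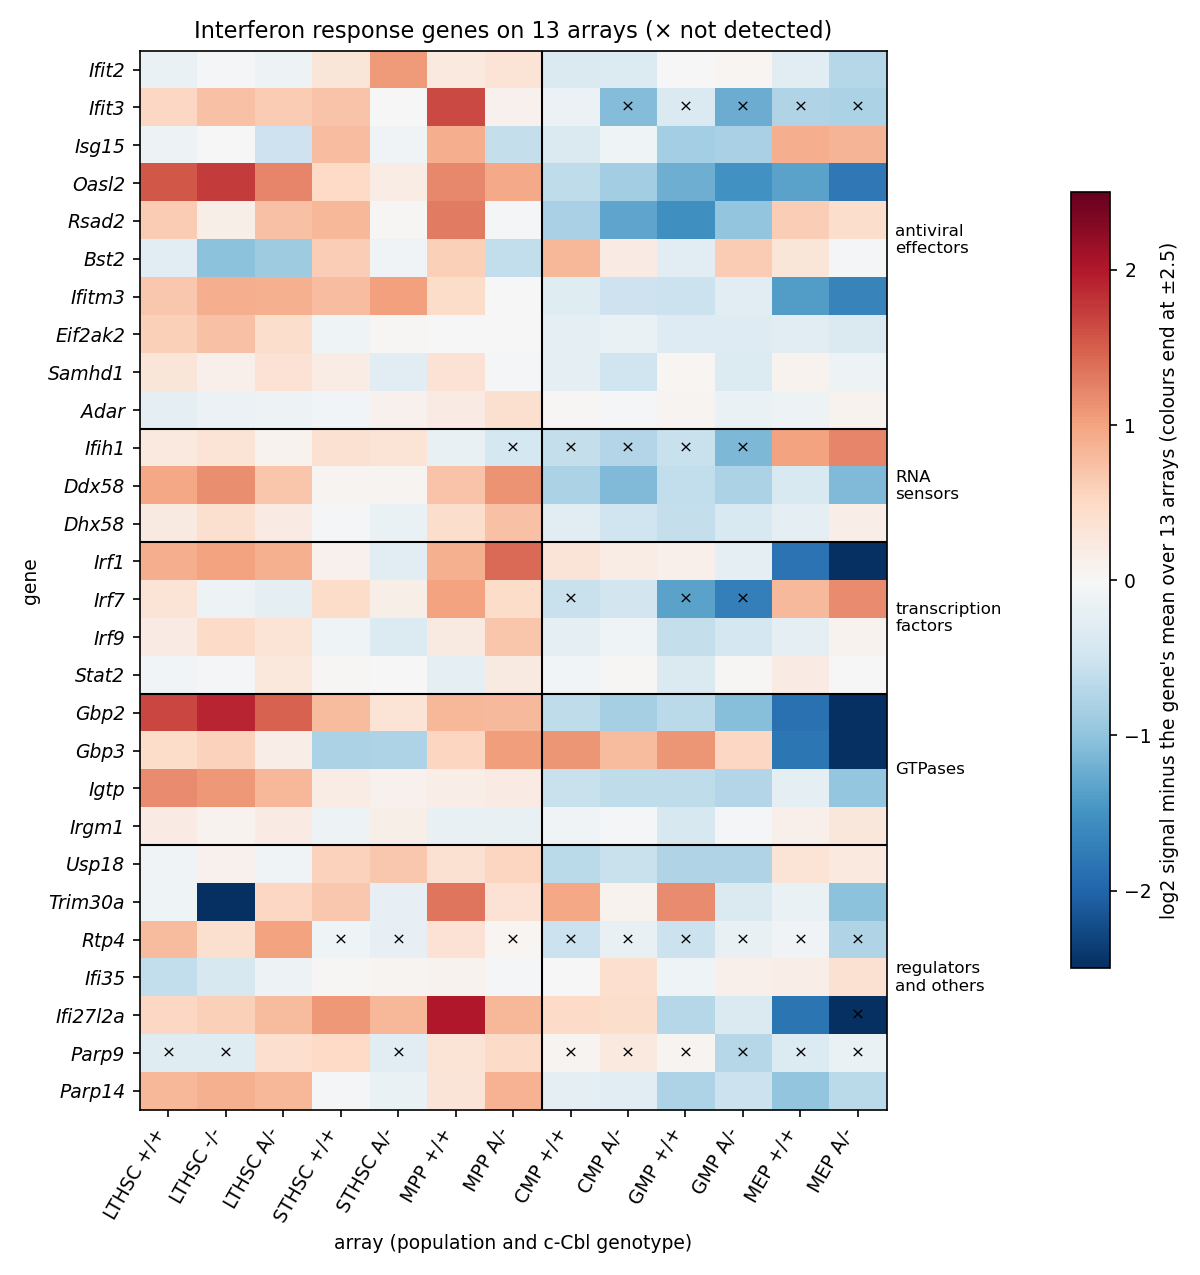
Log2 signal of the 28 tested interferon response genes minus each gene's mean over the 13 arrays, with arrays in columns and genes in rows grouped by role; red is above and blue below the gene's mean, and a cross marks a probe not detected. Oasl2, Gbp2 and Igtp are red on every LSK array and blue on every committed array, Irf1, Gbp3 and Ifi27l2a are darkest blue on MEP arrays, and Trim30a is darkest on the LTHSC -/- array at 5.5.

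Among the genes, 5 with a probe did not pass the detection filter. Ifit1, an RNA-binding antiviral protein, Iigp1, an immunity-related GTPase, and Xaf1, known from cell death signalling, were detected on 0 arrays. Oas1a, an oligoadenylate synthetase, and Mx1, an antiviral GTPase, were each detected on 1 array. Their normalized signals lay between 4.45 and 6.31, and no difference is drawn from them.

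The first comparison was between LSK cells and committed progenitors, 6 arrays in 3 populations each. Of the 28 genes, 4 were higher in LSK cells at an adjusted p under 0.05 and 0 were lower, by limma with population as a random block and Benjamini-Hochberg adjustment over 12807 features. Over all features tested, 1.87% were called higher in LSK cells and 0.0625% lower. The 4 genes were Oasl2, Gbp2, Ifitm3 and Ddx58. The median difference of the 28 genes was 0.54 on the log2 scale against -0.03 over all features, but -0.30 against -0.64 in the authors' processed values, where the LTHSC arrays have a scale of their own and 0 of the 28 were called. With scaling to the 75th percentile it was 0.36 against -0.27, and Oasl2 and Gbp2 alone of the 28 were called. Of all features 115 were then called higher and 1 lower. Without the LTHSC arrays only Oasl2 of the 28 was called, against 0.695% of all features called higher, and without the MEP arrays 8 were, against 2.86%. In the quantile normalized values 26 of 28 lay above 0, against 47.8% of all features, and Bst2 and Ifi35 lay below. Rtp4 and Parp9 were detected on LSK arrays alone, so the detection filter itself favoured a higher LSK value for them. For 9 of the 28, all 6 LSK arrays lay above all 6 committed arrays, against 5.22% of all features. A second test, for any difference among the 6 populations, called 21 of the 28 genes, against 55.6% of all features.

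**Figure D2:**
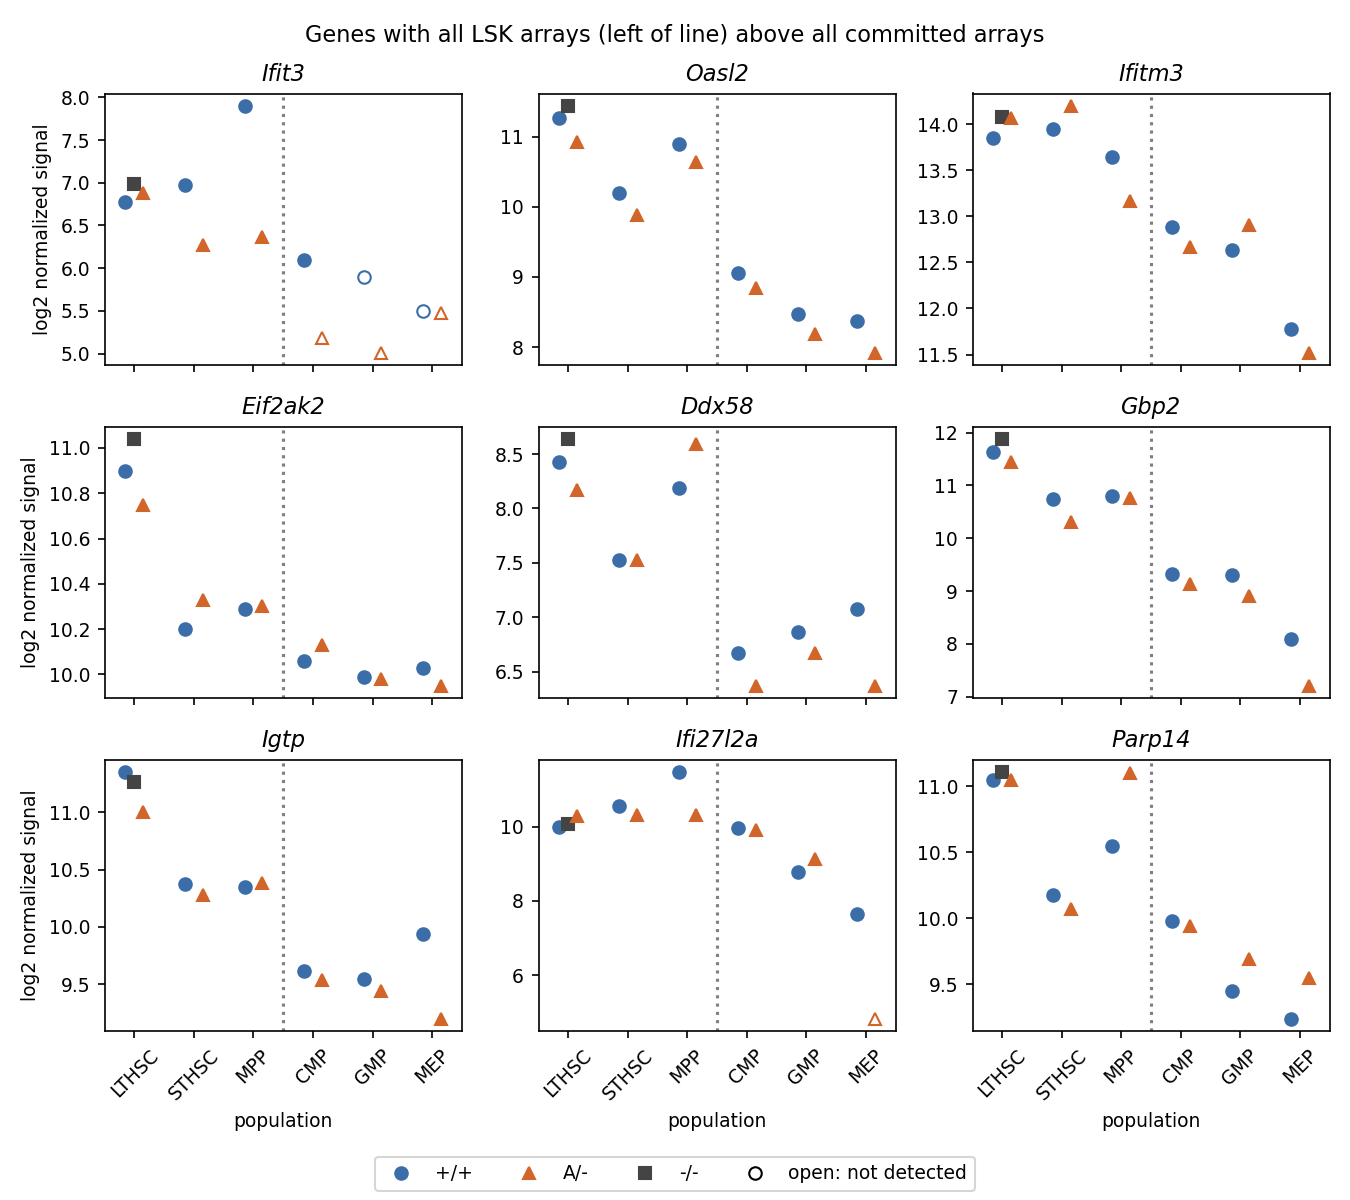
Log2 normalized signal (vertical axis) of the 9 genes whose LSK arrays all lay above all committed arrays, by population and genotype, with 1 point per array and open symbols where the probe was not detected. The dotted line parts LSK from committed populations; Oasl2 runs from 9.89 to 11.44 on its left and from 7.92 to 9.06 on its right.

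Of the antiviral effectors, 13 genes of which 10 were tested, 2 were called higher in LSK cells and 7 differed among populations. Over all features these shares were 1.87% and 55.6%. Oasl2 belongs to the oligoadenylate synthetase family, whose products activate RNase L to cut viral RNA. Its signals were 11.26, 10.92 and 11.44 (LTHSC), 10.20 and 9.89 (STHSC), 10.90 and 10.64 (MPP), 9.06 and 8.84 (CMP), 8.47 and 8.19 (GMP), 8.37 and 7.92 (MEP). The lowest LSK array, at 9.89, lay above the highest committed array, at 9.06, with LTHSC highest and MEP lowest. The LSK minus committed difference was 2.16 ± 0.27 (SE) on the log2 scale, adjusted p = 0.00136 by limma. It was called again with each population left out in turn, at 1.93 to 2.46. Another Oasl2 probe, detected on 6 arrays, was also higher in LSK cells, by 1.24.

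Ifitm3 encodes a membrane protein that blocks the entry of viruses from endosomes. It had signals of 13.85, 14.07 and 14.08 (LTHSC), 13.95 and 14.20 (STHSC), 13.64 and 13.17 (MPP), 12.88 and 12.67 (CMP), 12.64 and 12.91 (GMP), 11.78 and 11.52 (MEP). LTHSC and STHSC were highest, MPP next, CMP and GMP lower and close together, and MEP lowest. LSK cells were higher by 1.41 ± 0.31 (SE), adjusted p = 0.0363 by limma. It did not hold at this threshold without the LTHSC arrays (1.34, adjusted p = 0.198) or without any other population but MEP.

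Eif2ak2, the kinase PKR that shuts down translation when it binds double-stranded RNA, gave 10.90, 10.75 and 11.04 (LTHSC), 10.20 and 10.33 (STHSC), 10.29 and 10.30 (MPP), 10.06 and 10.13 (CMP), 9.99 and 9.98 (GMP), 10.03 and 9.95 (MEP). All LSK arrays were above all committed arrays, but by a narrow gap, 10.20 against 10.13, and the LTHSC arrays stood above the rest. The class difference of 0.44 ± 0.17 (SE) was not called (adjusted p = 0.201, limma), while the difference among populations was (adjusted p = 0.00487).

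Ifit3, a tetratricopeptide protein that binds the related Ifit proteins, was measured at 6.78, 6.88 and 6.98 (LTHSC), 6.97 and 6.27 (STHSC), 7.90 and 6.37 (MPP), 6.10 and 5.18 (CMP), 5.90 and 5.01 (GMP), 5.5 and 5.47 (MEP). It was highest on the MPP +/+ array and was not detected on the CMP A/- array or on either array of GMP and MEP, so its signal there is an upper limit. The class difference was 1.34 ± 0.39 (SE), adjusted p = 0.102 by limma, although no committed array reached an LSK array. Ifit2, its relative, had 8.53, 8.58 and 8.65 (LTHSC), 9.01 and 9.77 (STHSC), 8.94 and 9.04 (MPP), 8.35 and 8.37 (CMP), 8.72 and 8.76 (GMP), 8.44 and 8.0 (MEP). It was highest in STHSC, at a population mean of 9.39, and lowest in MEP at 8.22, with overlapping classes (adjusted p among populations = 0.0242, limma).

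Rsad2 (viperin) makes a nucleotide that halts viral RNA synthesis. Its signals were 8.96, 9.05 and 8.47 (LTHSC), 9.16 and 8.35 (STHSC), 9.62 and 8.30 (MPP), 7.51 and 7.0 (CMP), 6.79 and 7.34 (GMP), 8.94 and 8.76 (MEP). CMP and GMP were low, at population means of 7.25 and 7.07, and the MEP mean of 8.85 lay among the LSK means of 8.76 to 9.0, so the classes overlapped. The class difference of 1.19 ± 0.51 (SE) was not called (adjusted p = 0.231, limma), and without the MEP arrays it was 1.75 (adjusted p = 0.0285). With each other population left out it was not called (adjusted p = 0.313 to 0.466, limma).

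Isg15 is a ubiquitin-like protein joined to other proteins in the interferon response. It gave 8.38, 7.99 and 8.53 (LTHSC), 9.28 and 8.43 (STHSC), 9.43 and 7.91 (MPP), 8.16 and 8.41 (CMP), 7.66 and 7.71 (GMP), 9.42 and 9.36 (MEP). MEP cells had the highest mean, 9.39, and GMP cells the lowest, 7.68 (adjusted p among populations = 0.0353, limma). The LSK pairs differed by genotype, as described below, and the class difference was 0.12 ± 0.49 (SE) with adjusted p = 0.915.

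Bst2 (tetherin), which holds budding virions at the cell surface, Samhd1, which removes the nucleotides that viruses need, and Adar, which edits double-stranded RNA, were called in neither test. Their signals spanned 1.74, 0.86 and 0.64 log2 units over the 12 +/+ and A/- arrays. Samhd1 gave 9.91, 9.97 and 9.73 (LTHSC), 9.80 and 9.33 (STHSC), 9.97 and 9.58 (MPP), 9.38 and 9.11 (CMP), 9.66 and 9.26 (GMP), 9.69 and 9.48 (MEP), with overlapping classes. The Bst2 mean was 8.94 in LTHSC and 10.04 in CMP, the lowest and highest of the 6, with adjusted p = 0.257 among populations. Bst2 also marks plasmacytoid dendritic cells, and of the 9 plasmacytoid and dendritic markers only Bst2, Siglech and Tcf4 were detected on every array, Clec9a was on 1 and the other 5 on 0.

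The 3 sensors of cytoplasmic RNA all differed among populations, as did 55.6% of all features. Ddx58 (RIG-I) recognises the ends of viral RNA. Its signals were 8.43, 8.17 and 8.64 (LTHSC), 7.53 and 7.53 (STHSC), 8.19 and 8.59 (MPP), 6.67 and 6.37 (CMP), 6.86 and 6.67 (GMP), 7.08 and 6.37 (MEP). Every LSK array was at 7.53 or above and every committed array at 7.08 or below, with STHSC closest to the committed cells. LSK cells were higher by 1.40 ± 0.31 (SE), adjusted p = 0.04 by limma. Without LTHSC it was 1.29 (adjusted p = 0.214), and it was also not called without MPP, CMP or GMP.

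Ifih1 (MDA5), which recognises long double-stranded RNA, had 6.18, 6.03 and 6.29 (LTHSC), 6.32 and 6.29 (STHSC), 5.76 and 5.51 (MPP), 5.34 and 5.21 (CMP), 5.39 and 4.82 (GMP), 6.95 and 7.17 (MEP). It was highest in MEP, with both arrays above every LSK array, and not detected on the arrays of CMP and GMP or on the MPP A/- array (adjusted p among populations = 0.0015, limma). Dhx58 (LGP2), which modulates both other sensors, gave 9.12, 9.09 and 9.30 (LTHSC), 8.87 and 8.73 (STHSC), 9.34 and 9.63 (MPP), 8.61 and 8.40 (CMP), 8.29 and 8.51 (GMP), 8.64 and 9.06 (MEP). MPP was highest at a mean of 9.49 and GMP lowest at 8.40, and the class difference of 0.55 ± 0.25 (SE) was not called (adjusted p = 0.25).

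Of the 4 transcription factors, Irf1, Irf7 and Irf9 differed among populations and Stat2 did not (range of population means 0.27, adjusted p = 0.884, limma). The share of all features that differed was 55.6%. Irf1 is induced by interferon gamma and activates further genes. Its signals were 12.91, 12.88 and 13.01 (LTHSC), 12.11 and 11.74 (STHSC), 12.88 and 13.41 (MPP), 12.33 and 12.18 (CMP), 12.13 and 11.78 (GMP), 10.15 and 8.47 (MEP). The 2 MEP arrays were far below all others, which lay between 11.74 and 13.41. The population means ranged over 3.84 log2 units (adjusted p = 0.000458), from 9.31 in MEP to 13.14 in MPP, and the class difference of 1.48 ± 0.70 (SE) was not called (adjusted p = 0.268). All 4 other detected Irf1 probes were also higher in LSK cells, by 0.53 to 1.57.

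Irf7, the factor that amplifies type I interferon production, showed 6.92, 6.34 and 6.45 (LTHSC), 7.04 and 6.72 (STHSC), 7.57 and 7.04 (MPP), 6.01 and 6.11 (CMP), 5.24 and 4.86 (GMP), 7.38 and 7.76 (MEP). MEP was highest at a mean of 7.57, MPP next at 7.31, and GMP lowest at 5.05, where neither array detected the probe (adjusted p among populations = 0.000755, limma). Without MEP the class difference rose from 0.71 to 1.38 (adjusted p = 0.0454). Irf9, the DNA-binding partner of STAT2, had 10.73, 10.86 and 10.99 (LTHSC), 10.41 and 10.17 (STHSC), 10.75 and 11.22 (MPP), 10.30 and 10.41 (CMP), 9.93 and 10.07 (GMP), 10.30 and 10.60 (MEP). MPP and LTHSC had the highest means, 10.98 and 10.80, and GMP the lowest, 10 (adjusted p = 0.00837).

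Of the 5 interferon-inducible GTPases, 4 were tested and all 4 differed among populations, as did 55.6% of all features. Gbp2, a guanylate-binding protein that gathers on pathogen-containing vacuoles, had signals of 11.63, 11.45 and 11.88 (LTHSC), 10.75 and 10.31 (STHSC), 10.80 and 10.77 (MPP), 9.33 and 9.13 (CMP), 9.30 and 8.91 (GMP), 8.10 and 7.21 (MEP). Signal ordered the populations from LTHSC through MPP and STHSC to CMP, GMP and MEP, although the CMP and GMP means, 9.23 and 9.10, were closer than the arrays within each population. LSK cells exceeded committed cells by 2.29 ± 0.39 (SE), adjusted p = 0.0116 by limma. It was 1.99 without LTHSC (adjusted p = 0.0948) and 2.37 without MPP (adjusted p = 0.0509), and it was called with each other population left out. Another Gbp2 probe, detected on 5 arrays, was also higher in LSK cells, by 1.21.

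Gbp3 is a further guanylate-binding protein. It did not follow Gbp2, with 10.92, 10.62 and 11.03 (LTHSC), 9.66 and 9.69 (STHSC), 10.99 and 11.50 (MPP), 11.56 and 11.24 (CMP), 11.56 and 10.98 (GMP), 8.64 and 7.53 (MEP). CMP and GMP were as high as MPP, LTHSC lay just below, STHSC lower, and MEP lowest at a mean of 8.09. The population means ranged over 3.31 log2 units (adjusted p = 0.000156, limma), while the class difference was 0.31 ± 0.74 (SE).

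Igtp (Irgm3), an immunity-related GTPase of endoplasmic reticulum membranes, gave 11.35, 11 and 11.26 (LTHSC), 10.37 and 10.28 (STHSC), 10.35 and 10.38 (MPP), 9.62 and 9.54 (CMP), 9.55 and 9.44 (GMP), 9.94 and 9.20 (MEP). No committed array reached the LSK arrays, and LTHSC stood above STHSC and MPP. The class difference was 1.07 ± 0.25 (SE), adjusted p = 0.0511 by limma, and 1.08 without MEP (adjusted p = 0.0304). With each other population left out it was not called (adjusted p = 0.0793 to 0.232, limma). Irgm1, known in mice to support stem cell function under interferon, had 14.48, 14.47 and 14.35 (LTHSC), 14.15 and 14.41 (STHSC), 14.08 and 14.09 (MPP), 14.19 and 14.22 (CMP), 13.88 and 14.25 (GMP), 14.39 and 14.56 (MEP). By this bright probe it varied little across the arrays, with population means from 14.06 in GMP to 14.48 in LTHSC (adjusted p among populations = 0.0304, limma). Its classes overlapped, with a difference of 0.03. Another Irgm1 probe, detected on 13 arrays, was higher in LSK cells by 0.32, and a further probe, detected on 3 arrays, gave -0.01.

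Of the 9 regulators and other induced genes, 7 were tested, 4 differed among populations and 0 were called by class. Among all features 55.6% differed among populations and 1.87% were called higher in LSK cells. Ifi27l2a, a small interferon-induced membrane protein, had the widest range of all, with 10, 10.28 and 10.08 (LTHSC), 10.57 and 10.32 (STHSC), 11.48 and 10.32 (MPP), 9.97 and 9.92 (CMP), 8.78 and 9.12 (GMP), 7.65 and 4.82 (MEP). LSK arrays were at 10 or above, CMP close below at 9.92 and 9.97, GMP lower, and MEP lowest, with the MEP A/- array not detected. The population means ranged over 4.66 log2 units (adjusted p = 0.00218, limma), and the class difference of 2.12 ± 0.92 (SE) was not called (adjusted p = 0.236).

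Parp14, an ADP-ribosyltransferase, had 11.05, 11.05 and 11.11 (LTHSC), 10.18 and 10.07 (STHSC), 10.55 and 11.10 (MPP), 9.98 and 9.94 (CMP), 9.45 and 9.69 (GMP), 9.24 and 9.55 (MEP). LTHSC and MPP were highest and MEP lowest, and the lowest LSK array, at 10.07, lay above the highest committed array, at 9.98. The class difference was 1.03 ± 0.26 (SE), adjusted p = 0.072 by limma. Usp18, which removes Isg15 from proteins and blocks the type I receptor, gave 9.05, 9.05 and 9.25 (LTHSC), 9.72 and 9.81 (STHSC), 9.52 and 9.68 (MPP), 8.47 and 8.58 (CMP), 8.39 and 8.38 (GMP), 9.48 and 9.37 (MEP). STHSC, MPP and MEP were high and CMP and GMP low, so the classes overlapped. The class difference was 0.69 ± 0.27 (SE), adjusted p = 0.201, and without MEP it was 1.02 (adjusted p = 0.0285). With each other population left out it was not called (adjusted p = 0.289 to 0.399, limma).

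Rtp4, a receptor chaperone, was measured at 6.34, 6.55 and 5.95 (LTHSC), 5.44 and 5.34 (STHSC), 5.92 and 5.60 (MPP), 5.01 and 5.37 (CMP), 5.02 and 5.37 (GMP), 5.46 and 4.81 (MEP). It was detected on the 3 LTHSC arrays and the MPP +/+ array and on no other, so its rank below these is an upper limit (adjusted p among populations = 0.0281, limma). Parp9, the partner of an E3 ligase in interferon signalling, was detected on 4 arrays, and it, Ifi35 and Trim30a differed among populations in no test (adjusted p = 0.492, 0.116 and 0.114). The signals of Parp9 and Ifi35 spanned 1.20 and 1.04 log2 units over 12 arrays.

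Counted over the 28 genes, the population with the highest mean was LTHSC for 10, MPP for 9, MEP for 4, STHSC for 3, CMP for 2 and GMP for 0. Of all features tested, 22.9% were highest in LTHSC, 14.5% in MPP, 35.5% in MEP, 10.1% in STHSC, 6.36% in CMP and 10.6% in GMP. The lowest was GMP for 13, MEP for 10, LTHSC for 3, CMP for 2 and STHSC and MPP for 0, while 11.4% of all features were lowest in GMP, 30.9% in MEP, 24.8% in LTHSC and 17.9% in MPP. MEP cells were highest for Isg15, Ifih1, Irf7 and Ifi35 and lowest for Irf1, Gbp2, Gbp3 and Ifi27l2a among others. GMP cells were lowest for Isg15, Rsad2, Ifih1, Irf7 and Usp18 among others.

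Markers of neutrophils, macrophages and lymphocytes moved with the class difference. Erythroid and megakaryocyte genes did not, with 5 of 10 higher in LSK cells and 5 lower, a median of -0.63 and 0 called. All 11 neutrophil genes with a probe were higher in LSK cells, with a median difference of 4.28, although only Retnlg was called (adjusted p = 0.0488, limma). Their summed signal was 95057 to 207221 on the 6 LSK arrays of the comparison and 899 to 123418 on the 6 committed arrays. On the MEP +/+ array their sum of 123418 lay within the LSK range, and on the other committed arrays it was at most 70126. On that MEP +/+ array Oasl2 at 8.37, Gbp2 at 8.10, Ifitm3 at 11.78 and Ddx58 at 7.08 lay below every LSK array. Its macrophage sum of 534 and lymphocyte sum of 2052 lay below those of the LSK arrays too. Of 8 macrophage genes tested, 7 were higher in LSK cells and C1qb, C1qc and Spic were called. Of 6 lymphocyte genes all were higher and Cd3d was called. Among all features tested, 47.8% were higher in LSK cells and 1.87% were called higher. The macrophage sum was 815 to 2483 on LSK arrays and 284 to 3139 on committed arrays. The lymphocyte sum was 5866 to 11184 and 314 to 17759. Nkg7 made up most of this sum, so it mainly follows 1 gene. On the GMP +/+ array, with the sum of 17759, Nkg7 at 14.1 was the only lymphocyte gene detected. The same held on both MEP arrays. On the 6 LSK arrays of the comparison 6 to 8 of the 9 macrophage genes with a probe were detected and on committed arrays 0 to 3, and of 7 lymphocyte genes 3 to 6 and 1 to 2. Mmp8, Mrc1, C1qa, C1qb, C1qc, Spic, Cd3d, Cd3e, Cd3g and Cd2 were detected on no committed array. They passed the detection filter through LSK arrays, which largely set their direction in advance. The part of neutrophils, macrophages and lymphocytes in the class result was not tested.

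**Figure D3:**
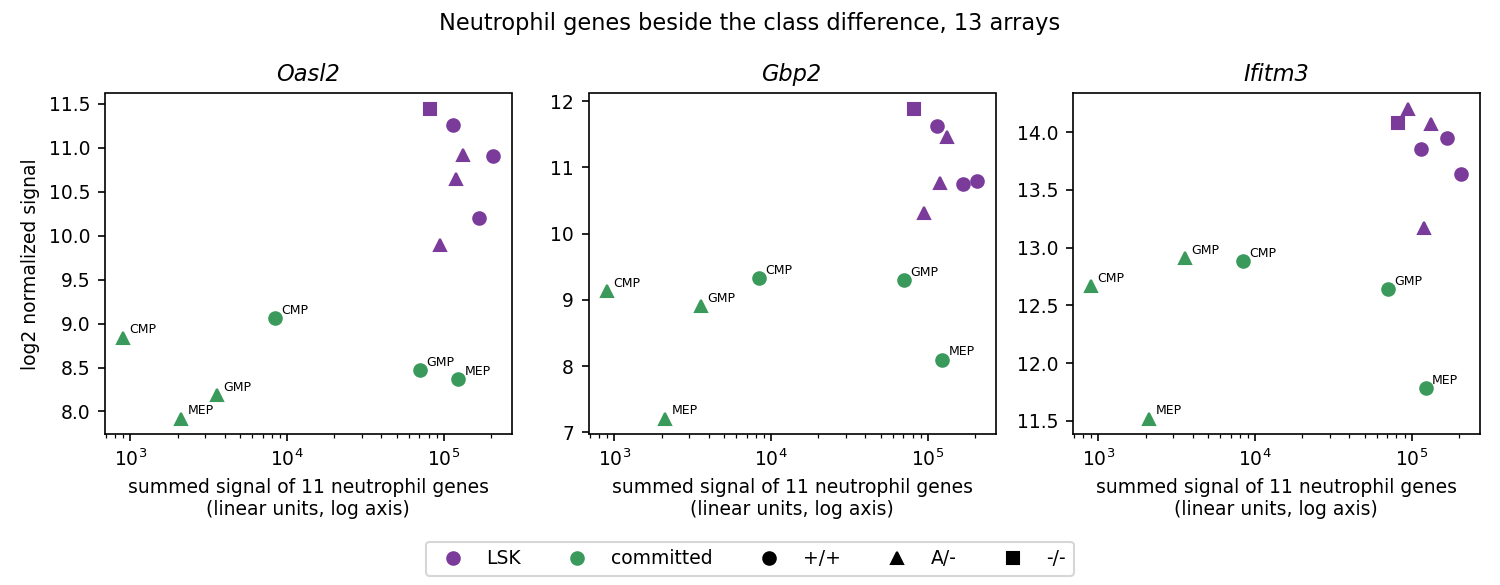
Log2 normalized signal of Oasl2, Gbp2 and Ifitm3 (vertical axes) against the summed linear signal of 11 neutrophil genes (horizontal log axis) on the 13 arrays, coloured by class, shaped by genotype and with the committed populations named. The MEP +/+ array, at a neutrophil sum of 123418, lies within the LSK range on the horizontal axis and below all LSK arrays on the vertical axis. The other committed arrays lie at sums of 70126 or less, and the part of neutrophil RNA was not tested.

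The second comparison asked how the A/- genotype differed from +/+ across the 6 populations. Of the 28 genes, 0 were called in either direction by limma with population as a fixed block, against 0.593% of all features. Of these genes 19 were lower and 9 higher in A/- cells, but 15 and 13 with scaling to the 75th percentile. The median was -0.16 on the log2 scale against 0.01 over all features, and it was nearer to 0 by 75th percentile scaling (-0.067), in the authors' processed values (-0.06) and without background correction (-0.06). At an unadjusted p under 0.05, 5 genes were lower and 0 higher, against 8.07% and 7.49% of all features. Those 5 were Oasl2, Trim30a, Ifit3, Gbp2 and Samhd1.

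**Figure D4:**
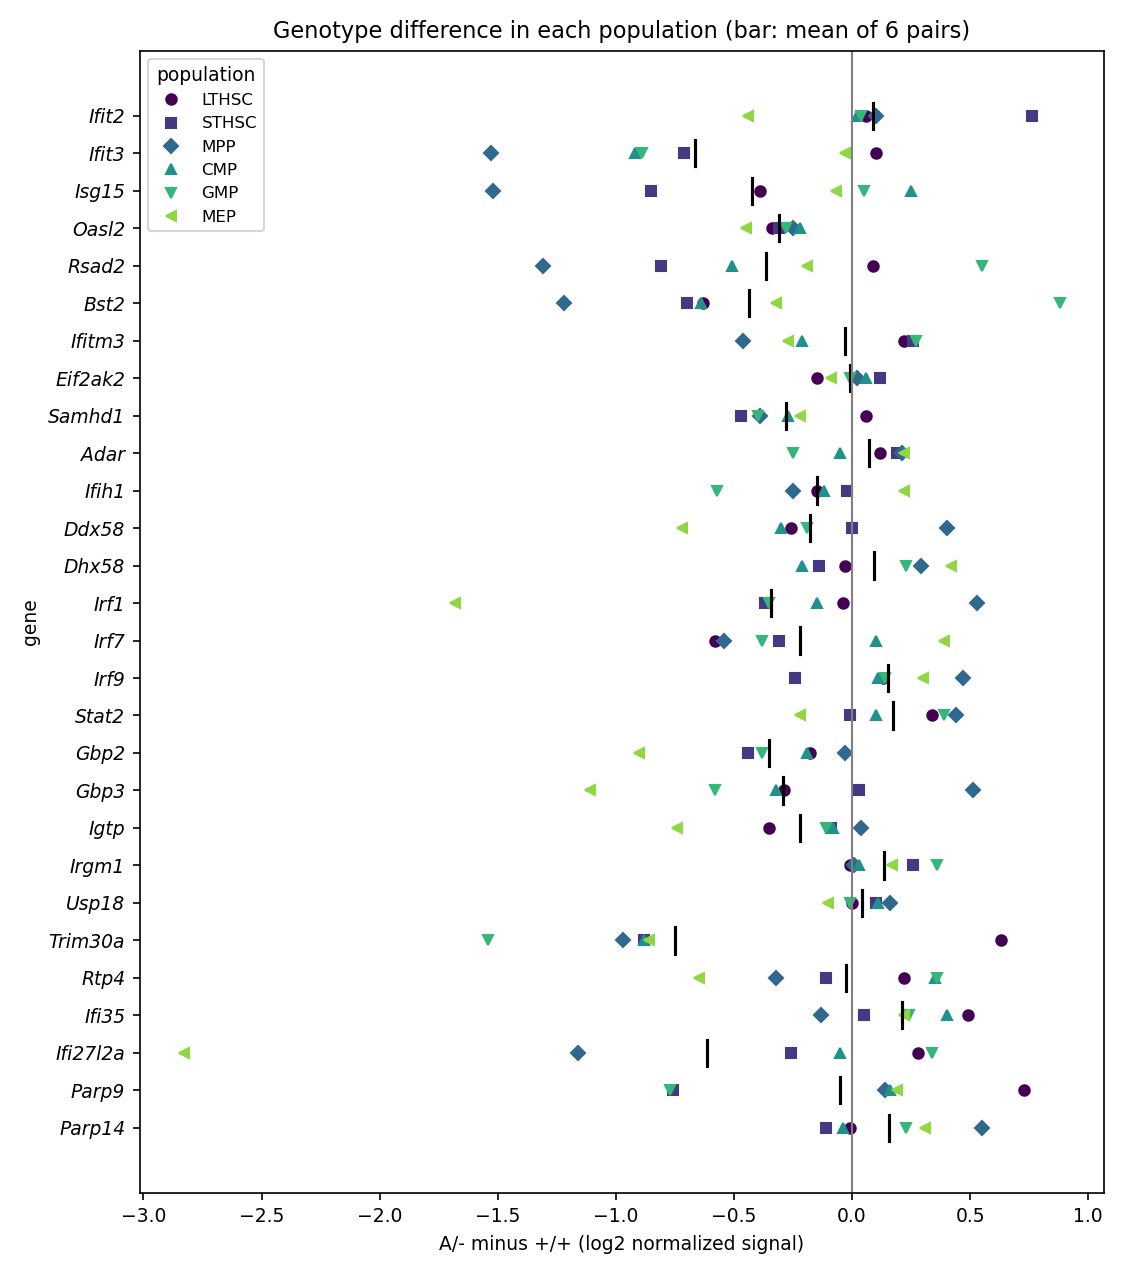
A/- minus +/+ difference in log2 normalized signal (horizontal axis) for the 28 tested genes, with 1 symbol for each of the 6 populations and a black bar at their mean. Oasl2 and Gbp2 lie left of 0 in all 6 populations, Trim30a in all but LTHSC, and the MEP symbol of Ifi27l2a, at -2.83, is the farthest from 0 and includes an array without detection.

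Oasl2 was lower in A/- cells in 6 of 6 pairs, with differences from -0.45 in MEP to -0.22 in CMP. The mean difference was -0.31 ± 0.09 (SE), adjusted p = 0.153 by limma. Gbp2 was also lower in 6 of 6 pairs, with the largest gap in MEP (-0.90) and the smallest in MPP (-0.03), and a mean of -0.35 ± 0.12 (SE), adjusted p = 0.221. Of all features, 3.87% were lower in 6 of 6 pairs. The less bright probes of both genes had mean differences of 0.06 for Oasl2 and 0.09 for Gbp2, but they were detected on 6 and 5 of 13 arrays and could show little in the committed pairs. Ifit3 was lower in 5 of 6 pairs, at -0.66 ± 0.22 (SE) and adjusted p = 0.216, and Samhd1 in 5 of 6, at -0.28 ± 0.10 (SE) and adjusted p = 0.234. The Ifit3 probe was not detected on either array of GMP and MEP or on the CMP A/- array, so the 2 lower pairs of GMP and MEP compare signals that are not above background.

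Trim30a encodes a mouse tripartite-motif protein, known in mice as a brake on inflammatory signalling. Its signals were 8.64, 9.27 and 5.5 (LTHSC), 9.43 and 8.55 (STHSC), 10.08 and 9.11 (MPP), 9.72 and 8.84 (CMP), 9.93 and 8.38 (GMP), 8.58 and 7.73 (MEP). In every population but LTHSC the A/- array was below the +/+ array, with a difference of -1.54 in GMP and of -0.97 to -0.86 in the other 4 populations, whereas in LTHSC it was above by 0.63. The mean over 6 pairs was -0.75 ± 0.23 (SE), adjusted p = 0.192 by limma. Without the LTHSC arrays it was -1.03, adjusted p = 0.00551, and Trim30a was then the only gene of the 28 called, against 3.69% of all features. The probe detected Trim30a on every array. The mouse genome holds close relatives of Trim30a, and which of them this probe can bind was not examined, so its identity is uncertain to that extent.

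Markers of mature cells also differed with genotype, beginning with neutrophil genes. All 11 had lower values in A/- cells over the 6 pairs, with a median of -2.5 and 0 called, and the summed signal was 8321 to 207221 on +/+ arrays and 899 to 132405 on A/- arrays. In each of the 6 pairs the neutrophil sum differed in the same direction as Trim30a, higher in A/- only in LTHSC. The MPP +/+ array was highest in both. The CMP +/+ array had a neutrophil sum of 8321 with Trim30a at 9.72, and the LTHSC +/+ array a sum of 114377 with Trim30a at 8.64. All 6 lymphocyte genes tested were below 0 as well, with a median of -0.60, and 6 of 8 macrophage genes, with a median of -0.29 and Vcam1 at -1.71 (adjusted p = 0.0683, limma). Of 10 erythroid and megakaryocyte genes 7 were above 0, with a median of 0.13. The part of all these cell types in the genotype result was not tested.

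**Figure D5:**
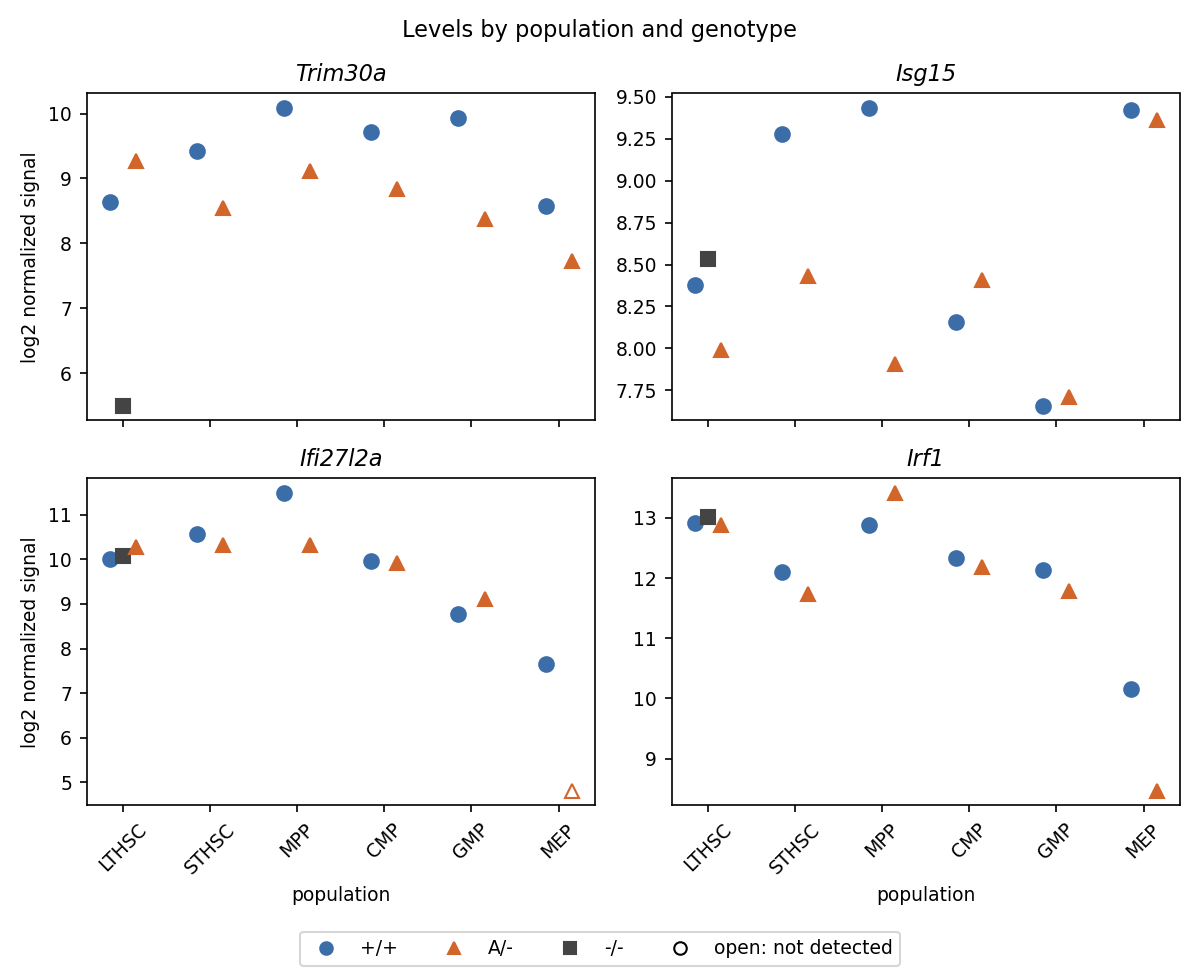
Log2 normalized signal (vertical axis) of Trim30a, Isg15, Ifi27l2a and Irf1 by population and genotype, with 1 point per array and an open symbol where the probe was not detected. The Trim30a point of LTHSC -/- cells, at 5.5, is the lowest of its panel, and the MEP A/- points of Ifi27l2a and Irf1 are the lowest of theirs.

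Within LSK cells alone, 0 of the 28 genes were called between A/- and +/+, as were 0% of all features, and 14 were lower and 14 higher. The smallest p was that of Isg15, lower in A/- cells of all 3 populations, with differences of -0.39 in LTHSC, -0.85 in STHSC and -1.52 in MPP. Its mean difference over these 3 pairs was -0.92 ± 0.22 (SE), adjusted p = 0.37 by limma. Bst2 was lower in the 3 pairs as well, at -0.85 ± 0.27 (SE) and adjusted p = 0.596, and Rsad2 in STHSC and MPP but not in LTHSC. These 3 genes and Oasl2 were lower at an unadjusted p under 0.05 and 0 of the 28 were higher, against 4.09% and 2.92% of all features. In LSK cells 10 of 11 neutrophil genes had lower values in A/- cells, with a median of -0.77, as had 6 of 6 lymphocyte genes (-0.64), 7 of 8 macrophage genes (-0.38) and 8 of 10 erythroid and megakaryocyte genes (-0.28), with 0 called. Their part in the LSK values was not tested.

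Within committed progenitors, 0 of the 28 genes were called, against 0.476% of all features, and 19 were lower and 9 higher. Trim30a had the smallest p, at -1.09 ± 0.30 (SE) and adjusted p = 0.136 by limma, and it was called when the LTHSC arrays were left out of the fit (adjusted p = 0.0289, with 1.63% of all features called and the Trim30a value the same). Gbp3 followed with -0.67 ± 0.19 (SE) and adjusted p = 0.139, Gbp2 with -0.49 ± 0.16 (SE) and adjusted p = 0.176, and Irf1 with -0.73 ± 0.28 (SE) and adjusted p = 0.224. These 4 genes and Oasl2 were lower in all 3 committed pairs and made up the 5 genes at an unadjusted p under 0.05, with 0 higher, against 9.84% of all features lower and 8.8% higher, and the MEP pair gave the largest gap for Irf1 (-1.68), Gbp3 (-1.11) and Gbp2 (-0.90). All 11 neutrophil genes were lower here too, with a median of -4.53, and 6 of them were called. Erythroid and megakaryocyte genes went the other way, with 9 of 10 higher in A/- cells, a median of 0.55 and 0 called. Their summed signal in GMP was 14586 in +/+ and 41525 in A/- cells. The part of these cell types in the committed values was not tested.

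The genotype differences of LSK and committed cells were compared directly in the same fit. Of the 28 genes 0 were called, against 0.00781% of all features. Isg15 had the smallest p, with an LSK minus committed value of -1.0 ± 0.30 (SE), adjusted p = 0.573 by limma, and Gbp3 differed by 0.75 the other way with the same adjusted p. At an unadjusted p under 0.05 these were the only 2 of the 28, with 4.66% of all features on the lower side and 3.7% on the higher side.

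In single pairs, which have no replicate and no test, some genes were at least 2-fold apart. In MPP, 5 of 28 were lower in A/- cells by this measure, Ifit3 (-1.53), Isg15 (-1.52), Rsad2 (-1.31), Bst2 (-1.22) and Ifi27l2a (-1.16), against 4.92% of all features. In MEP, Irf1, Gbp3 and Ifi27l2a were lower, against 4.35%, and in GMP Trim30a was, against 4.11%. The Ifi27l2a signal of 7.65 on the MEP +/+ array was at least 2.45-fold above the A/- array, where the probe was not detected. LTHSC, STHSC and CMP had 0 such genes, against 1.53%, 3.05% and 1.77% of all features. In each population 0 of the 28 were at least 2-fold higher in A/- cells, where the share of all features was 2.19% in LTHSC, 1.01% in STHSC, 1.37% in MPP, 1.21% for CMP, 4.04% for GMP and 1.75% for MEP. The MPP and MEP +/+ arrays were also those with the highest neutrophil sums of their classes, 207221 and 123418. The sum was lower in A/- cells in other pairs too, at 168084 and 95057 in STHSC, 8321 and 899 in CMP, and 70126 and 3583 in GMP. In LTHSC it was higher in A/- cells. The part of neutrophil RNA in these pairs was not tested.

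The last comparison concerned the LTHSC -/- array, 1 array against 1. Trim30a was at 5.5 in -/- cells, against 8.64 in +/+ and 9.27 in A/- cells, differences of -3.14 and -3.77 on the log2 scale. Before normalization its signal was 59.7 against 181.6 and 233.5. It alone of the 28 genes was at least 2-fold apart in either comparison, while 2.26% of all features were at least 2-fold lower and 1.13% higher than in +/+ cells, and 2.74% lower and 1.02% higher than in A/- cells. This was also the lowest Trim30a signal of the 13 arrays, though still detected. The next differences from the +/+ array were those of Bst2 (-0.77), Rsad2 (-0.49) and Irf7 (-0.47), and 26 of 28 lay within 0.5 log2 units of it. Between A/- and +/+ LTHSC, 0 of the 28 were at least 2-fold apart, against 2.19% of all features higher and 1.53% lower. The neutrophil sum of the -/- array, 82044, was below those of the +/+ (114377) and A/- (132405) arrays, and the part of neutrophil RNA in this difference was not tested.

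The pathway upstream of these genes was then read in lists of its ligands, receptors and signal proteins. Of 9 interferon genes with a probe, 0 passed the detection filter, and Ifna1 was detected on 1 array. Of 9 receptor and kinase genes 8 were tested, and 0 were called by class or genotype. Of all features, 1.87% were called higher and 0.0625% lower by class, and 0.593% by genotype over 6 pairs. Among populations 6 of the 8 differed, against 55.6% of all features. Ifnar2, the signalling chain of the type I receptor, was highest in MPP and CMP, with 9.45 and 9.85 in MPP and 9.64 and 9.47 in CMP against 8.16 to 8.63 in LTHSC and STHSC (adjusted p among populations = 0.00229, limma). Ifnar1, the other chain, was detected on 0 arrays. Ifngr1, a chain of the gamma receptor, had an LSK minus committed difference of -0.61 ± 0.22 (SE) with adjusted p = 0.168.

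Of 12 further signal factors tested, Irf2 alone was called by class, against 1.87% of all features called higher. It was higher in LSK cells by 0.93 ± 0.16 (SE), adjusted p = 0.0116 by limma. Irf2 competes with Irf1 for its sites and is known in mice to protect stem cells from interferon. Of the 12 factors 0 were called by genotype. Irf8 and Sting1 (also known as Tmem173) differed among populations (adjusted p = 1.08e-05 and 2.28e-05). Neither was detected on the MEP arrays, and the highest population was above MEP by at least 5.89 log2 units for Irf8 (CMP) and at least 2.92 for Sting1 (MPP). Of the 6 feedback inhibitors tested, 0 were called by class or genotype, and Socs3, which was detected on 8 arrays, had the largest class difference at 2.73 ± 0.88 (SE), adjusted p = 0.137.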

How the data were processed

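RNA was amplified to biotinylated cRNA and hybridised, per the labels' protocols. Per the file headers, the deposited unnormalized table has an intensity and a detection p-value per probe and array. In a further deposited table, of processed intensity values, the 3 LTHSC arrays and the other 10 had been brought to separate common scales. Not given in the sources used here were the scanner software and the authors' normalization. With limma 3.58.1 in R 4.3.3, background was taken from the detection p-values (offset of 16), and all 13 arrays were quantile normalized and put on the log2 scale, since the deposited intensity values are linear. Of 45281 probes, 34885 had 1 gene symbol, 18 had several and 10378 were not listed in the platform annotation. The brightest probe of each symbol was kept.

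The A/- and +/+ arrays were compared by lmFit and trended eBayes, population being a fixed block. LSK and committed cells were compared with population as a random block (duplicateCorrelation, correlation 0.616) and genotype as covariate. The F-test among populations used the same 12 arrays and left out the -/- array. P-values were adjusted by Benjamini-Hochberg over all 12807 features. The fits were also run on simulated data with known changes and independent noise. That run checks the calculation and not the LTHSC scale or the mixture of cells. Quantile normalization makes every difference relative to the rest of the array, and the offset shrinks differences of dim probes. A fold against an array without detection is a bound, taken from the dimmest detected signal of that array or the probe's own, whichever was higher.

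The genes and pathway lists were chosen with earlier results of these data known. All 34 genes may be named. Signals on every array are given for those called in any fit, and Trim30a was followed up after its values were seen. Genes outside the 34 are named if they are on the lists and called, or measured receptors, kinases, STAT or IRF genes. Socs3, the interferon Ifna1 and the dendritic cell, neutrophil, macrophage, lymphocyte and stem cell markers were named after their values were seen.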

Additional observations from a re-analysis of the deposited data

How the results depend on the processing

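Of the results for single genes, none changed sign while called. Beyond quantile normalization, 75th percentile scaling lowered the median class difference of all features to -0.27, called 116 features and 2 of the 28 genes (Oasl2, Gbp2), and put 21 genes above and 7 below 0. In the authors' processed values, whose LTHSC arrays have their own scale, the median of all features was -0.64, 0 features and 0 of the 28 genes were called (Oasl2 at 1.15), and the genes' median became -0.30. Without a filter on detection 426 features and 7 genes were called, with populations as fixed effects 5877 and 18, and with the +/+ arrays alone 97 and 0. Leaving out 1 population at a time gave 60 to 425 features and 1 to 8 genes, Oasl2 each time. Without LTHSC and MEP together, an alternative chosen after seeing the data, 6 genes were called higher. Of all features 311 were then called higher and 28 lower.

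For genotype over 6 pairs, the median of the genes was -0.067 by 75th percentile scaling and -0.06 both in the authors' values and without background correction. Features called numbered 11 without the trend and 2 to 473 with a population left out, with 0 to 1 genes, Trim30a being called without LTHSC. Without LTHSC and MEP there were 498 features, 2 genes (Ifit3, Trim30a) and a median of -0.072. In LSK cells alone, 5 features were called without a filter and 0 to 81 with a population left out, with gene medians of -0.086 to 0.001; without LTHSC and MEP there were 264 features, 1 gene (Isg15) and a median of -0.07. In committed cells alone the features called were 270 by 75th percentile scaling, 97 in the authors' values, 105 without background correction, 98 without a filter and 1 without the trend. With a population left out they were 1 to 209, with 0 to 1 genes and gene medians of -0.18 to 0.015, and without LTHSC and MEP 317 with 1 gene. For the difference between classes, features called were 2 without a filter, 0 without the trend, 0 to 5 with a population left out and 7 without LTHSC and MEP. The F-test called 12759 features in the authors' values, 3429 to 7368 with a population left out and 2155 without LTHSC and MEP.

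In LTHSC, features at least 2-fold apart numbered 243, 128, 141 and 232 for -/- against +/+ by 75th percentile scaling, in the authors' values, without background correction and with the LTHSC arrays normalized alone. They numbered 248, 136, 154 and 253 for A/- against +/+, and 264, 161, 184 and 262 for -/- against A/-. Trim30a stayed at least 2-fold lower in -/- cells under these, at -3.14 to -1.60 against +/+ and -3.77 to -2.04 against A/-. The causes of these shifts were not tested. The genotype fits pair the arrays by population, and the labels carry no replicate numbers for another pairing. With 1 array a group, precision is limited by the number of arrays.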

Other observations

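Other interferon-induced genes outside the 34 were read from a list of 46, of which 36 were tested. By limma, 4 were higher in LSK cells than in committed progenitors and 0 were lower, against 1.87% and 0.0625% of all features, and 0 were called by genotype over 6 pairs, against 0.593%. They were Oas2, an oligoadenylate synthetase (1.82 ± 0.39 SE, adjusted p = 0.0325), Uba7, the activating enzyme of Isg15 (1.58 ± 0.25 SE, adjusted p = 0.00695), Irgm2, an immunity-related GTPase (1.67 ± 0.33 SE, adjusted p = 0.023), and Parp12, an ADP-ribosyltransferase (1.24 ± 0.27 SE, adjusted p = 0.0363). Over the 36, 29 were above 0 with a median of 0.47. The neutrophil, macrophage and lymphocyte genes given with the class result moved with this difference too, and their part in it was not tested. Differences among the 6 populations were called for 31 of the 36, against 55.6% of all features.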
